A study of Mus musculus with 6 samples.

Results

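Sertoli cells are the somatic cells of the seminiferous tubule that nurse the germ cells, and 10 genes known for their immature or mature state were followed here: Amh, Inha, Inhba, Inhbb, Fshr, Sox9, Wt1, Gata4, Rhox5 and Trf. Members were found by the RefSeq accession of each mRNA probe. Of the 10 genes, 9 were matched, each by 1 probe, among 19053 genes named in this way. No probe matched Rhox5, an X-linked homeobox gene of Sertoli cells, and it was not analysed here. RNA came from whole testes of male C57/BL6 mice, either neonatal (6 days after birth) or adult (8 weeks), with 3 arrays per age. By the methods 21 neonatal and 6 adult mice were split into 3 groups per age, so an array stands for a group of mice, with fewer mice in the adult groups. The labels name no treatment and no genetic change.

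Between both ages Sertoli cells stop dividing, form the blood-testis barrier and begin to support meiosis and sperm formation. As background, immature cells make anti-Müllerian hormone and respond to follicle-stimulating hormone (FSH) through its receptor, while inhibin and activin, built from shared subunits, feed back on FSH and act within the testis. Over the same period the tubules fill with meiotic and haploid germ cells. In whole tissue, fewer Sertoli cells per unit of RNA and less RNA per Sertoli cell cannot be told apart.

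Values are normalized log2 signals, that is, the log2 of the background-subtracted intensity of a spot over the 75th percentile of its array, so that 0 is a spot as bright as that percentile. A common floor of -7.22 was set for the dimmest spots. The 75th percentile lay at an intensity of 2947, 2501 and 1384 on the neonatal arrays and 1855, 1425 and 748 on the adult arrays. Between 65.9% and 69.8% of spots were well above background. The scanner software marked 30.7% of spots on the array of neonatal replicate 3 and 25.4% on that of adult replicate 3 as outliers, against 6.11% to 10.7% on the other 4 arrays. Replicates 1 and 2 of both ages shared a scan and replicate 3 of both ages had another, so scan and replicate 3 cannot be told apart. Spots marked in this way are called outlier-flagged spots and were left out of the fits unless stated, while values given array by array and summed signals include them. The tool limma was run with the replicate number as a block on probes with at least 2 complete pairs. All 9 members were well above background on all 3 neonatal arrays, yet 5 of the 9 could be tested under this rule, since Inhbb, Sox9, Wt1 and Trf lost too many spots. For those 4 the fit with outlier-flagged spots kept is given.

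All 5 tested members (Amh, Inha, Inhba, Fshr and Gata4) were lower in adult testis at an adjusted p of at most 0.05 (limma). By limma 0 were higher, also at an unadjusted p of at most 0.05. The paired test of the methods gave 3 of 5 lower, or 2 after Benjamini-Hochberg adjustment, and 0 higher. These counts have to be read against the whole array, where 45.8% of the tested mRNA probes were lower and 29.7% higher by limma. With a change of at least 5-fold as well, 3 of 5 members were lower (Fshr, Inhba and Gata4), against 13.7% of mRNA probes, and 0 were higher, against 12.6%. With outlier-flagged spots kept, 9 of 9 members were lower, beside 49.5% of mRNA probes, and 5 of 9 were at least 5-fold lower, beside 15.4%. In that fit 0 members were higher, beside 29.8% of mRNA probes, or 12.8% with the 5-fold threshold. The median log2 fold change of the members was -2.34 in both fits, and over all tested mRNA probes it was -0.40 with those spots left out and -0.50 with them kept. These directions hold relative to the signal of the whole array, and those of Amh, Inha and Trf turned when arrays were scaled to Sertoli cell transcription factors instead, as described further on.

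**Figure D1:**
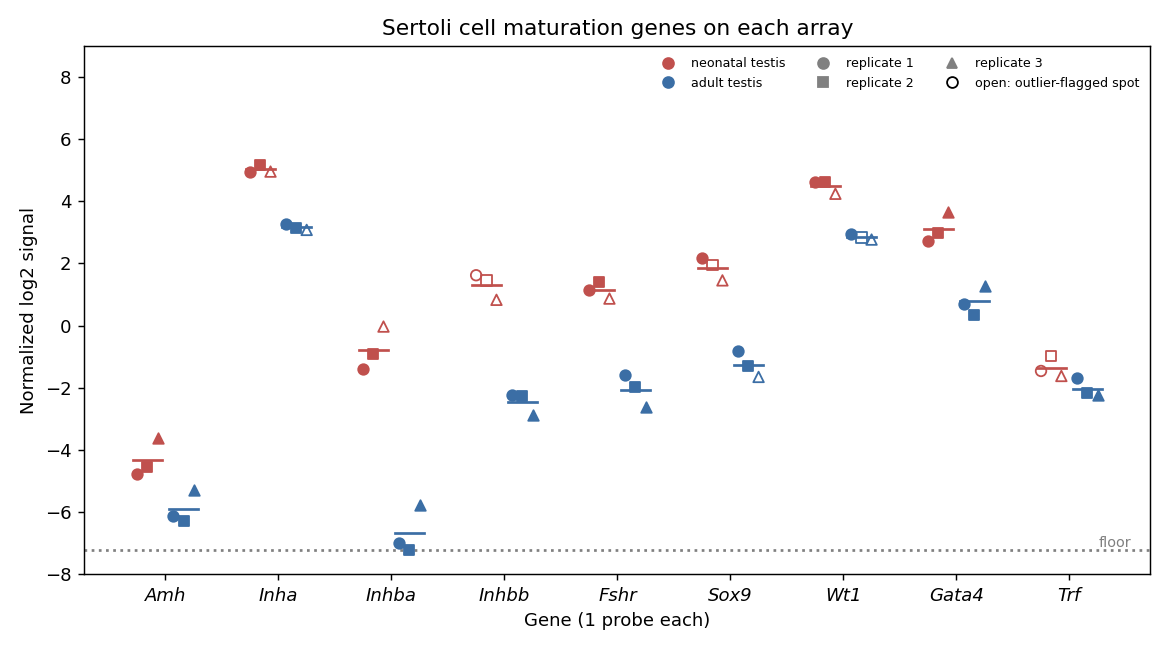
Normalized log2 signal (vertical axis) of the 9 measured genes (horizontal axis) on each of 6 arrays, with red for neonatal and blue for adult testis, a symbol for each replicate, open symbols for outlier-flagged spots and a bar at the mean of each age. The ages do not overlap for any of the 9 genes, and the gap is narrowest for Trf. Of the adult spots of Inhba 2 were not well above background.

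Of the hormone genes, Inha encodes the alpha subunit that makes a dimer an inhibin. The normalized log2 signal of Inha (NM_010564) was 4.95, 5.18 and 4.96 in neonatal and 3.28, 3.13 and 3.08 in adult replicates 1 to 3. The probe was bright on every array, the ages did not overlap, and the means were 5.03 ± 0.13 (SD, n = 3) and 3.16 ± 0.10 (SD, n = 3). Inha fell 3.64-fold (log2 fold change -1.86, SE 0.18, adjusted p 0.0034, limma), from pairs 1 and 2, because both spots of replicate 3 were outlier-flagged. With these spots kept the log2 fold change was -1.87, and pair 3 alone gave -1.88 against a mean of -1.86 in the scan of pairs 1 and 2. The paired test of the methods, which had 2 pairs, did not pass (p 0.065).

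Inhba encodes the beta A subunit of activin A and inhibin A. Its signal (NM_008380) was -1.41, -0.92 and -0.03 in neonatal and -7.00, -7.22 and -5.76 in adult testis. Adult replicate 2 lay at the floor, and of the adult arrays only replicate 3 had the spot well above background. The fit used pairs 1 and 2, in which neither adult spot was well above background, so that only a bound can be given for its size. Inhba was at least 48.8-fold lower in the adult over these 2 pairs. The fitted log2 fold change of -5.95 (adjusted p 0.00063) depends on the floor, and it was -3.59 after normexp background correction. The differences were -5.59, -6.31 and -5.73 in pairs 1 to 3, the last with an outlier-flagged neonatal spot.

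Inhbb encodes the beta B subunit, which joins the alpha subunit in inhibin B, the main inhibin of the male. The signal of Inhbb (NM_008381) was 1.62, 1.46 and 0.83 in neonatal testis, all 3 from outlier-flagged spots, and -2.22, -2.26 and -2.87 in adult testis. The ages were far apart on every array, by -3.84, -3.72 and -3.70 in the 3 pairs. With outlier-flagged spots kept, Inhbb fell 13.5-fold (log2 fold change -3.75, SE 0.11, adjusted p 4.3e-05).

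Amh encodes anti-Müllerian hormone, the Sertoli cell hormone that makes the Müllerian ducts regress. Its probe (NM_007445) was dim, with intensities of 108, 108 and 112 in neonatal and 26.6, 18.1 and 19.1 in adult testis. The normalized log2 signal was -4.77, -4.53 and -3.62 against -6.12, -6.30 and -5.29, so the ages did not overlap although replicate 3 was the highest at both. In adult replicate 2 the spot was not well above background. Amh fell 3.02-fold (log2 fold change -1.59, SE 0.13, adjusted p 0.00091, 3 pairs), with differences of -1.35, -1.77 and -1.66. None of the spots was outlier-flagged. The size depends on how background is treated, and after normexp background correction the log2 fold change was -0.32. Apart from the comparison with the mean of Sox9, Wt1 and Gata4 further on, differences between the members were not tested.

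Fshr encodes the receptor through which FSH acts on Sertoli cells. The signal of Fshr (NM_013523) was 1.16, 1.39 and 0.87 in neonatal and -1.57, -1.99 and -2.63 in adult testis. All 6 spots were well above background and the ages did not overlap. Fshr fell 8.30-fold (log2 fold change -3.05, SE 0.23, adjusted p 0.0021) from pairs 1 and 2, since the neonatal spot of replicate 3 was outlier-flagged. Pair 3 gave -3.50 with that spot kept, and the fit over all 3 pairs -3.20. The paired test of the methods did not pass on 2 pairs (p 0.067).

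Of the transcription factors, Gata4 is a zinc finger protein that regulates many gonadal somatic genes and is also made in Leydig cells. Its signal (NM_008092) was 2.74, 2.99 and 3.64 in neonatal and 0.70, 0.35 and 1.29 in adult testis, with no outlier-flagged spot. Replicate 3 was the highest at either age, and no adult value came near a neonatal one. Gata4 fell 5.08-fold (log2 fold change -2.34, SE 0.16, adjusted p 0.00054, 3 pairs), just inside the 5-fold threshold. Without replicate 2 the log2 fold change was -2.20, outside it. The 3 pairs differed by -2.04, -2.64 and -2.36.

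Sox9 drives the fetal choice of the Sertoli cell fate and stays on in the adult cell. The signal of Sox9 (NM_011448) was 2.19, 1.95 and 1.46 in neonatal and -0.80, -1.31 and -1.65 in adult testis, with outlier-flagged spots in neonatal replicates 2 and 3 and adult replicate 3. The lowest neonatal value stood well above the highest adult value. With outlier-flagged spots kept, Sox9 fell 8.70-fold (log2 fold change -3.12, SE 0.12, adjusted p 8.2e-05), by -2.99, -3.27 and -3.11 in the 3 pairs.

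Wt1 encodes a zinc finger protein needed to form the gonad and to maintain Sertoli cells. The signal of Wt1 (NM_144783) was 4.63, 4.63 and 4.24 in neonatal and 2.94, 2.83 and 2.77 in adult testis, with outlier-flagged spots in neonatal replicate 3 and adult replicates 2 and 3. Both ages were tight and did not overlap. With outlier-flagged spots kept, Wt1 fell 3.15-fold (log2 fold change -1.66, SE 0.13, adjusted p 0.00045), with differences of -1.69, -1.81 and -1.47.

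Trf encodes transferrin, the iron carrier that Sertoli cells supply to germ cells behind the barrier. Its signal (NM_133977) was -1.46, -0.97 and -1.62 in neonatal testis, all outlier-flagged, and -1.68, -2.16 and -2.24 in adult testis. The ages nearly touched, since neonatal replicate 3 and adult replicate 1 were close to each other. Trf fell 1.59-fold with outlier-flagged spots kept (log2 fold change -0.67, SE 0.22, adjusted p 0.047), and the pairs gave -0.22, -1.18 and -0.62. Relative to the median of all mRNA probes the log2 fold change was -0.17. The call was lost in 8 of 16 alternatives and turned in 1, the Sertoli factor scaling. The adjusted p was up to 0.29 in those where it was lost, among them the fit with no replicate block (0.053), without replicate 2 (log2 fold change -0.42) and without replicate 3 (-0.70).

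To compare members within an array, each was also expressed relative to the mean log2 signal of Sox9, Wt1 and Gata4, with outlier-flagged spots kept. Amh was then higher in adult testis in each pair, by 0.88, 0.81 and 0.65 (log2 fold change 0.78, SE 0.17, adjusted p 0.0045). Inha was higher by 0.56, 0.52 and 0.44 (log2 fold change 0.51, adjusted p 0.025). Trf was higher by 2.02, 1.39 and 1.69 (log2 fold change 1.70, adjusted p 0.00022). With outlier-flagged spots left out, Inha gave 0.54 and did not pass (adjusted p 0.065, 2 pairs). The comparison is with the mean of the 3 factors and not with each of them, and Wt1 fell no more than Inha (log2 fold change -1.66 against -1.87). Amh fell about as much as Wt1 (log2 fold change -1.59 against -1.66). The Amh probe was also dim in adult testis, so the size of its ratio depends on how background is treated. Fshr stayed lower (log2 fold change -0.83, adjusted p 0.0076), as did Inhbb (-1.38, adjusted p 0.00042) and Inhba (adjusted p 5.3e-06), whose size here again depends on the floor. The factors did not move alike either, for Sox9 fell more than their mean in all 3 pairs, by -0.75, -0.70 and -0.79, while Wt1 was above it by 0.55, 0.77 and 0.84. This scaling moved the median log2 fold change of all mRNA probes by 2.37, to 1.87, and a ratio of this kind shows unequal change and not that a gene stayed constant.

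Genes on the pathways of these hormones were mostly lower in adult testis relative to the whole array, where 45.8% of mRNA probes were lower and 29.7% higher. Of 25 other genes of inhibin, activin and AMH signalling, 15 could be tested, 13 fell and 0 rose, with 0 higher also at an unadjusted p of at most 0.05. The paired test gave 7 lower and 0 higher, or 4 lower after Benjamini-Hochberg adjustment. Leaving out replicate 3 gave 10 lower and 1 higher of 15. Leaving out replicate 1 or replicate 2 left 5 genes to test, of which 2 were lower and 0 higher each time. The median log2 fold change of the list was -1.64. Normexp background correction gave 10 lower and 2 higher. The Sertoli factor scaling gave 1 lower and 9 higher, while it moved the median over all mRNA probes by 2.39. This scaling shifts all genes of an array alike, so counts under it, here and below, depend on that shift. The shares of 45.8% and 29.7% come from the fit without it. Shares of all mRNA probes under it are not given, so these counts do not set a list apart from the whole array. Fst, whose product follistatin binds activin, was at -3.10, -6.02 and -1.95 in neonatal testis and not well above background in any adult replicate. Its adult level was at least 7.10-fold lower, although neonatal replicate 2 overlapped the adult values, and the bounds in the 3 pairs were 15.2-fold, 1.44-fold and 16.3-fold. Smad3, which carries the activin signal to the nucleus, fell by 3.00 on the log2 scale (adjusted p 0.00079). Tgfbr3, the co-receptor betaglycan that helps inhibin bind, was at 2.20, 2.28 and 2.67 in neonatal and 1.76, 1.70 and 2.18 in adult testis (log2 fold change -0.51, adjusted p 0.0496, 2 pairs). Amhr2, the AMH receptor, had outlier-flagged spots on all 6 arrays and gave a log2 fold change of -0.25 (adjusted p 0.14) with them kept. Inhbc, Inhbe and Bambi lay at the floor on all 6 arrays.

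In the list of 13 genes of FSH receptor signalling, 10 could be tested, 8 fell and 0 rose. Over all mRNA probes 45.8% were lower and 29.7% higher. By limma 0 genes of the list were higher at an unadjusted p of at most 0.05, while the fit with an intensity trend gave 1 higher. The paired test gave 7 lower and 0 higher, or 5 lower after adjustment. The median log2 fold change was -1.35. Normexp background correction gave 5 lower. The Sertoli factor scaling, with its shift of all genes alike, gave 0 lower and 7 higher. Prkar2b, a regulatory subunit of the cAMP-dependent kinase, fell by 2.51 (adjusted p 0.00021) and the adenylyl cyclase gene Adcy9 by 2.24 (adjusted p 0.00092). The catalytic subunit gene Prkaca did not pass (log2 fold change 0.32, adjusted p 0.13), but passed as higher with outlier-flagged spots kept (0.36, adjusted p 0.042).

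Genes linked with immature Sertoli cells moved both ways. Of 8 genes, all tested, 4 fell and 2 rose, with a median of -1.10. These shares are near those of all mRNA probes (45.8% lower and 29.7% higher). The paired test gave 4 lower and 2 higher, or 2 of each after adjustment, and the Sertoli factor scaling gave 1 lower and 5 higher. Leaving out replicate 1 left 5 genes to test, with 1 lower and 2 higher. Leaving out replicate 2 also left 5, with 2 lower and 2 higher. Hsd17b1, a steroid dehydrogenase gene, fell by 4.65 (adjusted p 0.00093), and Cyp26b1, whose product breaks down retinoic acid, fell by 2.64 (adjusted p 0.0010). Cyp19a1, the aromatase gene, rose by at least 35.3-fold (adjusted p 0.00012), from -7.05, -7.00 and -7.22 to -2.11, -1.76 and -1.86. It was well above background on 1 neonatal array, that of replicate 2. Aromatase is also made in adult Leydig cells and germ cells. The keratin gene Krt8 rose by 1.04 (adjusted p 0.0024). Krt18, its partner, was well above background on 2 arrays only, both neonatal, and did not pass (log2 fold change -0.65, adjusted p 0.085). Ncam1, singled out because its probes differ, was counted as lower by its brightest probe. With outlier-flagged spots kept, its probes gave log2 fold changes of -2.03, -1.77 and, for the dimmest, 1.49 (adjusted p 0.00046, limma). By mean log2 signal the brightest probe was that of Cyp26b1 in neonatal testis (Nr0b1 in replicate 2) and of Nr0b1 in adult testis, and the summed signal of the list, in units of the 75th percentile, was 34.4, 33.8 and 44.2 in neonatal and 11.8, 12.2 and 12.9 in adult testis.

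Genes linked with mature Sertoli cells also moved both ways. Of 11 genes, 7 could be tested, 5 fell and 1 rose, with a median of -1.35, beside 45.8% lower and 29.7% higher over all mRNA probes. The paired test gave 4 lower and 1 higher, or 2 lower and 1 higher after adjustment. Leaving out replicate 1 or replicate 2 left 4 genes to test, with 2 lower and 1 higher each time. All 11 were tested with outlier-flagged spots kept, 8 fell and 2 rose, and the Sertoli factor scaling gave 1 lower and 5 higher. The gene that rose in the first fit was Aqp8, a water channel, at -4.02, -4.14 and -3.37 in neonatal and 3.15, 2.96 and 3.85 in adult testis (log2 fold change 7.16, adjusted p 7.3e-05). Cdkn1c, a cell cycle inhibitor gene singled out after its values were seen, was the other with outlier-flagged spots kept (log2 fold change 3.19, adjusted p 0.00031). Shbg, which encodes the androgen-binding protein, fell at least 16.1-fold (adjusted p 0.0013), with adult replicates 2 and 3 at the floor. The homeobox gene Rhox8 fell by 2.43 (adjusted p 0.00020). Gata1 fell by 1.35 (adjusted p 0.0044). Cldn11, a claudin of the barrier, had outlier-flagged spots on 5 of 6 arrays and with them kept gave a log2 fold change of -1.43 (adjusted p 0.00073). The brightest probe was that of Rhox8 in neonatal and of the gap junction gene Gja1 in adult testis, and the summed signal was 119, 133 and 169 in neonatal and 55.9, 56.2 and 70.2 in adult testis. Every gene of this list was well above background on at least 1 array of either age.

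Among 18 other Sertoli cell genes, 17 had a probe (none matched Cst12), 10 could be tested, 6 fell and 3 rose, with a median of -1.99, beside the same 45.8% and 29.7% over all mRNA probes. Keeping outlier-flagged spots gave 13 lower and 3 higher of 17. The Sertoli factor scaling gave 2 lower and 5 higher. Gdnf, the niche factor for spermatogonial stem cells, was at -0.74, -2.50 and -1.51 in neonatal testis and not well above background in any adult replicate, at least 19.6-fold lower over pairs 2 and 3, since the spot of neonatal replicate 1 was outlier-flagged. The cathepsin gene Ctsl fell by 3.15 (adjusted p 0.00031). Kitl, the ligand for the germ cell receptor Kit, fell by 2.35 (adjusted p 0.0013). Nr5a1, which encodes steroidogenic factor SF-1 and is also made in Leydig cells, fell by 1.72 (adjusted p 0.00077). With outlier-flagged spots kept, the hedgehog ligand gene Dhh fell by 3.41 (adjusted p 0.00010) and Dmrt1 by 3.34 (adjusted p 0.00039). Tsx, which the paper places in meiotic germ cells, rose by 3.59 (adjusted p 0.00098). Which cells account for this rise, or for the other rises in the Sertoli cell lists, was not tested. Also higher was the defensin gene Defb45 (log2 fold change 2.52, adjusted p 0.00031). By mean log2 signal the brightest probe at both ages was that of Cst9 (log2 fold change -0.29, adjusted p 0.22), although another gene was brighter on 2 neonatal arrays, and the summed signal was 272, 243 and 345 in neonatal and 104, 99.4 and 120 in adult testis.

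**Figure D2:**
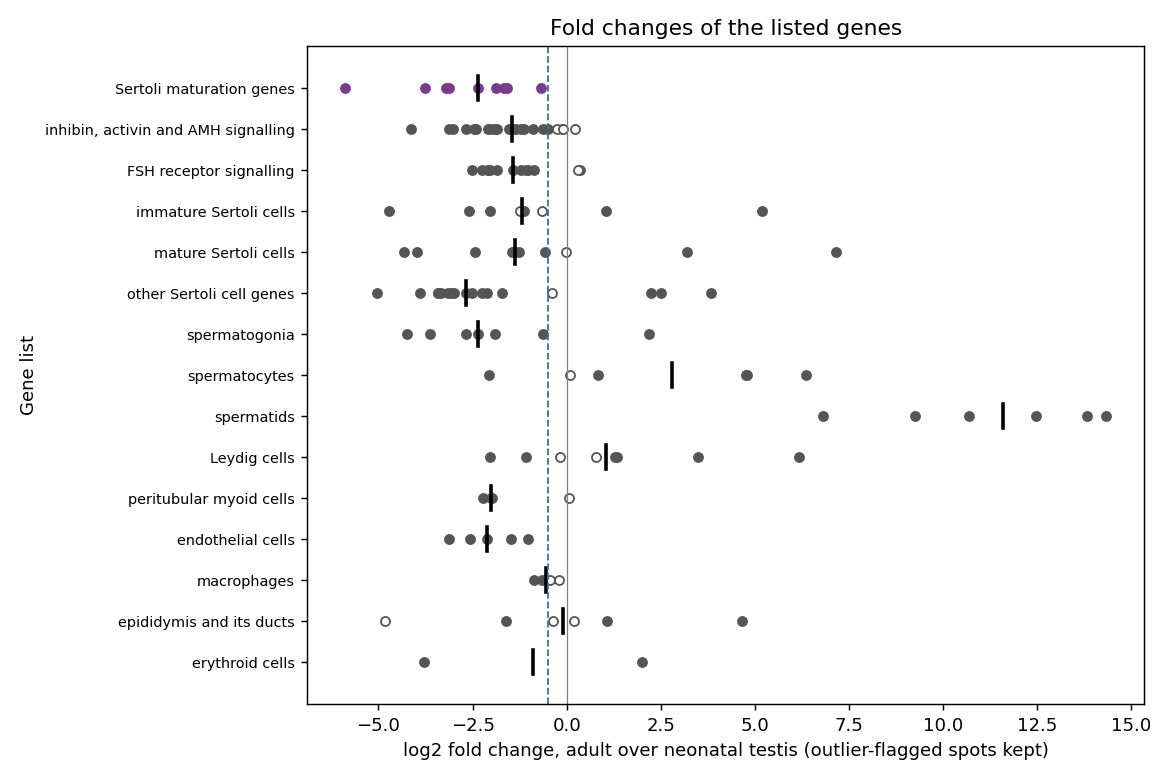
Log2 fold change, adult over neonatal testis (horizontal axis), of each tested gene of the Sertoli cell maturation set and of 14 other lists (vertical axis), with outlier-flagged spots kept. Filled points have an adjusted p of at most 0.05, black bars are list medians and the dashed line is the median of all tested mRNA probes (-0.50). The 9 maturation genes lie left of 0 under this scaling, although Amh, Inha and Trf lie right of it when arrays are scaled to Sox9, Wt1 and Gata4, and the list median farthest right is that of the spermatid genes.

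Markers of other cells changed over the same interval, and the summed signal of the 9 Sertoli cell maturation genes was 73.0, 79.4 and 70.2 in neonatal against 20.5, 18.2 and 18.6 in adult testis. The counts for each cell type stand beside 45.8% of mRNA probes lower and 29.7% higher on the whole array. Of 6 spermatid genes, 5 could be tested, 5 rose and 0 fell, with a median of 12.5. Their summed signal went from 0.65, 0.69 and 0.78 to 1031, 1201 and 1401, with Tnp1 the brightest in neonatal and Prm2 in adult testis. The protamine gene Prm2 rose by 14.3 (adjusted p 7.3e-05) and the transition protein gene Tnp2 by 14.2 (adjusted p 0.00012). Of 6 spermatocyte genes, 4 could be tested, 3 rose and 1 fell, with a median of 2.69. Their summed signal was 16.5, 13.5 and 10.2 against 73.3, 89.0 and 87.0, with Sycp1 the brightest in neonatal and Piwil1 in adult testis. Piwil1 rose by 6.31 and Spo11 by 4.57, while Dmc1 fell (at least 3.74-fold, adjusted p 0.00042), a call that was lost after normexp background correction and under the Sertoli factor scaling. Of 8 spermatogonial genes, 4 could be tested and 4 were lower and 0 higher, with a median of -2.45 and summed signals of 113, 123 and 102 against 61.3, 64.4 and 47.6. A fit with outlier-flagged spots kept tested 7, in which 6 fell and 1 rose, namely Ddx4 (log2 fold change 2.18, adjusted p 0.00054). Its other probe gave 0.38 (adjusted p 0.46), so the 2 probes differ. The Sertoli factor scaling gave 1 lower and 0 higher. The paired test and the fit without the filter on dim probes each gave 2 lower. In that list Sall4 fell by 4.43 and Stra8 by 2.61, Uchl1 was the brightest in neonatal and Ddx4 in adult testis, and Gfra1 was too dim on all 6 arrays to be called well above background. The part of these cells in the lower signal of the Sertoli cell genes was not tested.

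Somatic neighbours were also followed, with the same 45.8% lower and 29.7% higher as background. Leydig cell genes had summed signals of 32.0, 35.1 and 30.3 in neonatal and 82.8, 69.3 and 63.9 in adult testis. Of 8 genes, 4 could be tested, and Star (1.34, adjusted p 0.020) and Cyp11a1 (1.16, adjusted p 0.0093) rose while Hsd3b1, the brightest in neonatal testis, fell (-1.04, adjusted p 0.0099), with a list median of 0.49. The brightest in adult testis was Insl3, which rose with outlier-flagged spots kept (log2 fold change 3.49, adjusted p 0.00044). In that fit 4 genes of the list rose and 2 fell. Peritubular myoid genes had summed signals of 21.7, 22.0 and 27.1 against 4.80, 4.35 and 6.56. In that list 3 of 4 tested genes fell and 0 rose (median -1.93), Myh11, the brightest, by 2.31 and Tagln by 1.95, while normexp background correction gave 1 higher, and Cnn1 was too dim on all 6 arrays. Endothelial genes summed to 8.49, 9.69 and 15.7 against 2.43, 2.07 and 3.54. All 5 fell and 0 rose (median -2.01), among them Pecam1 by 3.27 and Cdh5, the brightest, by 2.53. The paired test gave 2 lower and the fit without the filter on dim probes 3. Macrophage genes, of which 4 of 5 had a probe (none matched Cd68), summed to 3.99, 3.79 and 3.88 against 2.56, 2.47 and 3.14, and 2 of 3 tested fell and 0 rose (median -0.57), Lyz2 by 0.68 and Csf1r, the brightest, by 0.57. Both calls were lost with no replicate block (0 lower), and that of Csf1r with outlier-flagged spots kept (-0.43, adjusted p 0.052). Erythroid genes, with no probe for Hbb-b1, summed to 4.67, 5.98 and 2.27 against 2.71, 2.53 and 2.06, so the sum was lower in each adult replicate than in its neonatal partner. Hba-a1, a globin gene and the brightest in neonatal testis, fell by 3.78 with outlier-flagged spots kept (adjusted p 0.00014), a fit with 1 gene lower and 1 higher. Alas2, the brightest in adult testis, was the 1 gene that could be tested with these spots left out and rose by 1.99 (adjusted p 0.0054). For each count of 0 higher in these lists, limma gave 0 higher at an unadjusted p of at most 0.05 as well, and so did the paired test, which passed 0 genes in either direction in the Leydig, macrophage and erythroid lists. Without the filter on dim probes 0 Leydig, 1 macrophage and 0 erythroid genes passed. Under the Sertoli factor scaling the counts lower and higher were 0 and 4 for Leydig, 0 and 1 for myoid, 1 and 2 for endothelial and 0 and 3 for macrophage genes. The part of these cells in the result was likewise not tested.

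For genes of the epididymis and its ducts, the summed signal in neonatal testis was 6.02, 0.74 and 6.85. In adult testis it was 0.46, 0.42 and 0.71. The spread between the neonatal arrays came mostly from 1 gene, Crisp1, singled out after its values were seen. Crisp1 was at 2.44, -4.34 and 2.52 in neonatal testis and between -5.30 and -4.23 in adult testis. Its spot of neonatal replicate 3 was outlier-flagged. In pair 2, whose neonatal array was low in Crisp1, all 9 Sertoli cell maturation genes were lower in the adult, with differences from -1.18 (Trf) to -6.31 (Inhba, with its adult spot at the floor). Fst was also lowest on that neonatal array. These are values of a single pair, and the part of epididymal tissue in the signals of the Sertoli cell genes or of Fst was not tested. Of 7 genes of this list, 6 could be tested, 1 fell and 2 rose, with a median of -0.09. Over all mRNA probes 45.8% were lower and 29.7% higher. Pax8, the brightest by mean log2 signal in adult testis, fell by 1.61. The adult level of Ros1 was higher by at least 23.7-fold and that of Lcn9 by at least 1.95-fold, since neither rose well above background on a neonatal array. Lcn8 was too dim on all 6 arrays, and Lcn5 on the adult arrays.

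The study tied several lncRNAs to these genes by position and picked them as differentially expressed on the same arrays. Probes of lncRNAs were among those fitted, but their values here are a description and no test result is given. The values include outlier-flagged spots, which were neonatal replicates 1 and 2 of AK015151, neonatal replicate 1 of AK031341, neonatal replicate 3 of AK035610 and adult replicate 3 of uc007mef. AK035610, intergenic near Inhba, was at 1.01, 1.08 and 0.78 in neonatal and -5.03, -4.86 and -5.58 in adult testis, and so was high where Inhba was high. AK015151, within an intron of Wt1 in the same orientation, was at -0.13, -0.25 and -1.62 against -5.28, -5.28 and -5.54. AK031341, which overlaps Gata4 exons in the same orientation, was at -3.53, -3.85 and -5.72 against -6.59, -6.71 and -7.22, and in adult testis only replicate 1 had it well above background. These 3 were higher in all neonatal than in all adult replicates, as were their partner genes. The remaining pair ran opposite to their partners. uc007mef, intergenic near Sox9, was too dim on the neonatal arrays to be called well above background and stood at 4.22, 4.12 and 4.34 in adult testis, at least 2435-fold higher over pairs 1 and 2. AK016587, intergenic near Fshr, was likewise too dim in neonatal testis and stood at -4.13, -4.54 and -3.92 in the adult, at least 7.64-fold higher. No probe carried the identifiers BC006965 or AK015526.

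Promoters are shown for the FSH receptor gene Fshr and for Inhba, the subunit gene with a dim probe in adult testis, as the 250 bases before the RefSeq start on GRCm38.p6. Each was searched on both strands for the E-box CACGTG, the SF-1 motif AAGGTCA, the GATA motifs AGATAA and TGATAA and the core TGACG of a cAMP response element. Capitals mark the only match in the pair, an E-box 61 bases before the Fshr start. Of 32851 promoters, 6.02% held this E-box, 4.08% the SF-1 motif, 16.6% a GATA motif and 17.8% the cAMP element core in the same window. RefSeq promoters of Inha, Inhbb and Rhox5 held none of these letters. A match is a description and not a binding site. The Fshr window lies on chr17:89200676-89200925, minus strand, and the Inhba window on chr13:16011601-16011850, plus strand.
Fshr: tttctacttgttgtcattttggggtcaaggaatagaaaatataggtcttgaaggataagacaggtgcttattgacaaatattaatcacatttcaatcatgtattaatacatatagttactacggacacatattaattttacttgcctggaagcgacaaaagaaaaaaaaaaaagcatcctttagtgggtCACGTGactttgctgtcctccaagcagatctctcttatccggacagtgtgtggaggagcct
Inhba: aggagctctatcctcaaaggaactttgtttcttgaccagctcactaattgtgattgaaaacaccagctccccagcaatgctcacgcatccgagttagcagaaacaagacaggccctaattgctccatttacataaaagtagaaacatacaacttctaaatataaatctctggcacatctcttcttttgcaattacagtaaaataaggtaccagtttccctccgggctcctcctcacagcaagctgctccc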

How the data were processed

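RNA from 6 testis samples was hybridized to 1-colour lncRNA and mRNA arrays and read, per the submitters' processing notes, with Agilent Feature Extraction 10.5.1.1. In the deposited scanner files each spot has an intensity from which the software had taken background and spatial trend, with no scaling between arrays, and flags (other values, 0 or 1). A series table of log2 values from the authors served as an alternative. Spots of a probe were averaged, scaled to the 75th percentile of the array and floored at the highest of the scaled values of an intensity of 5. The 24517 probes (15121 of them mRNA) with at least 2 complete pairs and at least 1 spot well above background were fitted with limma 3.58.1 (R 4.3.3). Replicate number was a blocking factor, and p-values were Benjamini-Hochberg adjusted over all of them. The prior degrees of freedom were 2.10. Calls needed an adjusted p of at most 0.05, and in a second count a 5-fold change as well. Deviations from the age mean correlated across 7333 probes between ages with r of 0.50, 0.43 and 0.78 for replicates 1 to 3, and with 0.47 and 0.51 for arrays of different number in the same scan, so these values do not tell pairing from an effect of the scan. Genes are not independent replicates. The number of arrays limits the precision. A gene with several probes was counted by the tested probe with the highest mean signal. Where spots at the dimmer age were not well above background and lay below the lowest signal well above background on their array, they were raised to it and the fold is given as a lower bound.

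The members and lists were chosen with earlier results of these data known. No gene stood in more than 1 list (0 shared). Genes named are all members, Amhr2, Tgfbr3, Fst, Gata1, Cldn11, Krt18, Kitl, Gdnf, Dhh, Dmrt1 and Nr5a1, the 2 genes of each list that fell most and the 2 that rose most among calls, the brightest gene of each cell type list by mean log2 signal (by age, a split made after values were seen) and lncRNAs the study tied to a member. Alternatives were outlier-flagged spots kept, normexp background correction with an offset of 50, quantile, median and Sertoli factor scaling, no common floor, other filters, no block or the scan as a block, an intensity trend, the paired test of the methods, the authors' log2 values, and leaving out each replicate. The fit was tested on simulated data. Python 3.11.15, numpy 2.4.6, pandas 2.3.3 and matplotlib 3.10.9 were used elsewhere.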

Additional observations from a re-analysis of the deposited data

How the results depend on the processing

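Counts of members changed with the treatment of outlier-flagged spots, with the test, with normalization, with the Sertoli factor scaling and with the replicates left out. Lower in adult testis were 5 of 5 tested members as reported, 9 of 9 with outlier-flagged spots kept and 9 of 9 with the authors' log2 values, where more members could be tested. Of all mRNA probes, 45.8% were lower as reported and 49.5% with outlier-flagged spots kept, or 13.7% and 15.4% with the 5-fold threshold. Such shares are not given for the other alternatives, so counts under them do not set the members apart from the whole array. The paired test of the methods gave 3 of 5 at its threshold and 2 after Benjamini-Hochberg adjustment. With outlier-flagged spots kept it gave 8 of 9 lower in either case. Leaving out each replicate gave 2 to 5, with 2 members tested without replicate 1 and without replicate 2. At least 5-fold lower were 3 as reported, 5 with outlier-flagged spots kept, 5 with the authors' log2 values, 4 with quantile normalization, 2 with the paired test and 1 with the adjusted paired test, and leaving out each replicate gave 0 to 3. Without replicate 1 the count was 1 and without replicate 2 it was 0. With outlier-flagged spots kept, leaving out replicates 1 to 3 gave 9, 8 and 8 of 9 members lower. At least 5-fold lower were then 5, 4 and 5, and 5 with the paired test. With these spots left out and no replicate block the counts were 5 and 3, the same as with the block. Scaling to Sox9, Wt1 and Gata4, which could give no value for those 3 genes, left 4 tested members, of which 2 were lower, 1 higher and 1 at least 5-fold lower. Under it the log2 fold change turned to 0.78 for Amh, 0.54 for Inha (adjusted p 0.065, not passed) and 1.70 for Trf, and the median over mRNA probes moved by 2.39. The quantile, median and normexp alternatives moved that median by -0.33, -0.31 and 0.43. The authors' values gave a median of -0.84, a shift of -0.33 from the median with outlier-flagged spots kept. Apart from the Sertoli factor scaling, each member kept its negative sign in all alternatives that could be run, from -6.55 to -3.59 for Inhba, -1.98 to -0.32 for Amh and -0.93 to -0.31 for Trf. The cause of these shifts was not tested. Signal over background limits the sizes for Amh, with 1 adult spot not well above background, and Inhba, with 2.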
